A study of Saccharomyces cerevisiae with 3 samples.

Results

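Mitochondrial protein synthesis in the budding yeast Saccharomyces cerevisiae is described here through 8 listed genes, out of 5777 measured on each array. These are PTH1, PTH2, MRF1, RRF1, MEF1, MEF2, TUF1 and IFM1. PTH2 is listed as a peptidyl-tRNA hydrolase gene and is not taken here as a factor of mitochondrial translation. The genes were chosen by name, with PTH1 chosen because of its large difference between these arrays, and all 8 were found by their locus tags. The values that led to the choice are therefore given as a description, with no test.

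RNA of strain DS10 was measured on 3 one-colour Cy3 arrays, 1 for each plasmid. All cells were fresh transformants carrying pRS415, a low-copy plasmid, with the constitutive and strong GPD promoter, grown to log phase in medium lacking leucine. The vector group carried GPD-TAP, the Ssz1 S295F group an Ssz1 protein with the substitution S295F, and the Zuo1 fragment group residues 365 to 433 of Zuo1, in which S427G is the substitution. Whether a TAP product is made from the vector plasmid is not given in the labels, so every ratio to vector is a ratio to GPD-TAP, whatever that plasmid expresses. The labels call the background WT, and the chromosomal SSZ1 and ZUO1 genes are taken as present in every group. RNA of 3 cultures was pooled for each array, so each group has 1 array, nothing is known of the spread between cultures, and no p-value was computed.

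Mitochondria translate a small set of messages from their own DNA on ribosomes of bacterial type. An initiation factor brings the first tRNA to the ribosome, elongation factors deliver the following tRNAs and move the message along, a release factor frees the finished chain at a stop codon, and a recycling factor helps to split the ribosome from its message. Peptidyl-tRNA hydrolases cut chains from tRNAs that left a ribosome before the chain was finished. Ssz1 and Zuo1 form a chaperone complex on cytosolic ribosomes, and each can activate the drug resistance regulator Pdr1.

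Levels are the deposited RMA intensities, in arbitrary units. A level is the geometric mean over 3 blocks of the array, and a log2 ratio is a difference of mean log2 levels between arrays, with the SD of that difference over the 3 blocks. The block SD covers only the spread between blocks within a pair of arrays. Technical differences that all blocks of an array share, such as those of labelling or hybridization, are not in it. The same limit holds for blocks that do not overlap between arrays, which small differences can also show. The share of all genes with such blocks is not given here, so nothing is read from it. The term past 2-fold means a log2 ratio of 1 or more in size, and this threshold is no test. The median intensity was 2697 to 2802 on the arrays and their 5th percentile 189 to 211. The median log2 ratio of all genes to vector was -0.15 with Ssz1 S295F and -0.12 for the Zuo1 fragment. Of the genes past 2-fold in these comparisons, 64.4% and 80.8% were higher than with vector. After a loess on mean level the shares were 91.9% and 95.2%, and with ratios centred on their median they were 81.4% and 89.0%. SSZ1 read 19318 with its own construct, against 10279 with vector and 12001 with the Zuo1 fragment. ZUO1 read between 12935 and 13744, which does not check the fragment, as the places of its probes were not used here.

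PTH1, which encodes a mitochondrial peptidyl-tRNA hydrolase that the array annotation calls dispensable for growth and respiration, was far higher on both construct arrays than on the vector array. PTH1 (YHR189W, chromosome VIII, 484028 to 484600, 573 bp of coding sequence, 8 probes) gave an intensity of 77.7 in vector cells, 1884 in Ssz1 S295F cells and 1024 in Zuo1 fragment cells. The 3 vector blocks read 78.2, 84.0 and 71.3, the Ssz1 S295F blocks 1904, 1871 and 1877, and the Zuo1 fragment blocks 1060, 1018 and 994. No block of one array overlapped those of another, and the order was Ssz1 S295F, then the Zuo1 fragment, then vector.

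The log2 ratio of PTH1 to vector was 4.60 ± 0.12 with Ssz1 S295F, or 24.3-fold, and 3.72 ± 0.11 for the Zuo1 fragment, or 13.2-fold. These were the highest ratios of all 5777 genes in each comparison, though in block 2 alone PTH1 ranked 2 for the Zuo1 fragment. In either direction, 0.0346% and 0.0173% of genes, PTH1 included, had a ratio at least as large in size. Both comparisons share the vector array, so the agreement between them is not a repeat. Relative to the median of all genes, the ratios were 4.75 and 3.84. In RNA of whole cultures, a higher level in each cell and a larger share of cells carrying the transcript cannot be told apart.

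The size of these ratios rests on a vector reading near the bottom of that array. The reading of 77.7 lay at percentile 2.49 of the vector array, below its 5th percentile of 211, while the construct readings lay at percentiles 36.7 and 20.7 of theirs. With each array floored at its 5th percentile, the log2 ratios were 3.16 and 2.28, and PTH1 ranked 3 and 13 from the top. With 64 added to every intensity they were 3.78 and 2.94, and PTH1 ranked 1 and 2. Of the 288 genes at or below the 5th percentile of the vector array, 55 (19.1%) were past 2-fold higher with Ssz1 S295F. For the Zuo1 fragment 44 (15.3%) were, where 5.02% and 3.64% of all genes were higher in these comparisons. Past 2-fold lower were 38 and 14 of the 288, beside 2.77% and 0.866% of all genes. The median log2 ratios of the 288 genes were -0.12 and -0.25. The part of the single vector array in the PTH1 difference was not tested.

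PTH1 also differed between the constructs, without the vector array. Its log2 ratio of the Zuo1 fragment over Ssz1 S295F was -0.88 ± 0.04, or 1.84-fold lower with the fragment, with blocks at -0.85, -0.88 and -0.92. This was the 25th lowest of 5777 ratios in that comparison, where 0.589% of genes had a ratio as large in either direction. It did not reach 2-fold.

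**Figure D1:**
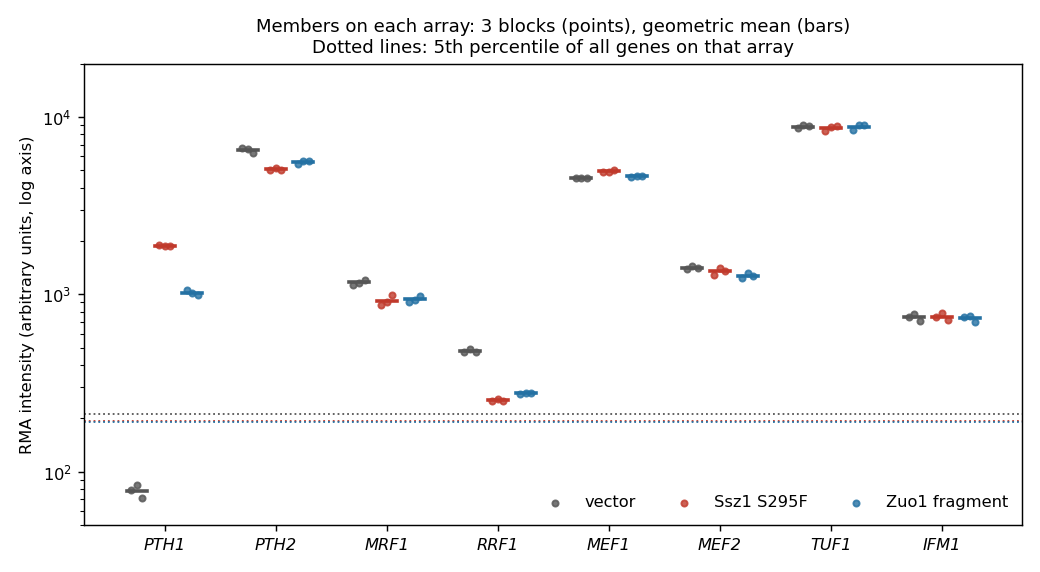
RMA intensity (arbitrary units, log axis) of the 8 genes on the vector, Ssz1 S295F and Zuo1 fragment arrays. Points are the 3 blocks of an array, bars their geometric mean, and dotted lines the 5th percentile of all genes on each array; PTH1 on the vector array, at 77.7, is the one reading below its line.

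The genes beside PTH1 on chromosome VIII did not share its difference. GPI16 (YHR188C), a GPI transamidase subunit gene on the opposite strand, runs away from PTH1, with 190 bp between the start codons. It read 5222 with vector, 6570 for Ssz1 S295F and 6509 for the Zuo1 fragment. Its log2 ratios to vector were 0.33 ± 0.06 and 0.32 ± 0.04. ERG9, the squalene synthase gene that starts 244 bp after PTH1, read 10148, 10664 and 10616 on the same arrays, with ratios of 0.07 ± 0.06 and 0.07 ± 0.05. The next genes outwards, IKI1, an Elongator subunit gene (-0.61 ± 0.04 and -0.51 ± 0.02), and CTF8, a gene of sister chromatid cohesion (-0.76 ± 0.04 and -0.43 ± 0.04), were on the lower side of vector. None of these 4 coding sequences overlaps that of PTH1.

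PTH2, the other peptidyl-tRNA hydrolase gene of the list, did not go with PTH1. Its product is of a different, archaeal type of hydrolase and, per the array annotation, also acts on the ubiquitin-proteasome pathway. PTH2 (YBL057C, chromosome II, 112803 to 113447, 645 bp, 7 probes) read 6516 with vector, 5073 for Ssz1 S295F and 5585 for the Zuo1 fragment. Its blocks did not overlap between arrays, and vector was the highest. The log2 ratios to vector were -0.36 ± 0.04 and -0.22 ± 0.07, and after a loess on coding length they turned to 0.05 and 0.09. With Ssz1 S295F, 42.5% of all genes had a ratio at least as large in size, so the PTH2 ratio lay well within the bulk of genes. The current RefSeq entry of this gene is shorter, at 627 bp, than the span on the array.

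RRF1, the mitochondrial ribosome recycling factor, had the largest difference after PTH1, in the opposite direction. RRF1 (YHR038W, chromosome VIII, 184059 to 184751, 693 bp, 8 probes) read 479 with vector, 252 for Ssz1 S295F and 277 for the Zuo1 fragment. The vector blocks ran from 471 to 491, those of Ssz1 S295F from 250 to 257 and those of the Zuo1 fragment from 273 to 279, so no blocks overlapped. The log2 ratios to vector were -0.92 ± 0.01 and -0.79 ± 0.03, or 1.90-fold and 1.73-fold lower, short of 2-fold in both.

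RRF1 was the 223rd lowest gene with Ssz1 S295F and the 141st lowest with the Zuo1 fragment, at percentiles 3.86 and 2.44 of all ratios. Its readings were low on each array, at percentiles 9.00, 6.15 and 6.65. A loess on mean level brought the ratios to -0.42 and -0.33, and one on coding length to -0.53 and -0.49, so its direction held and its size moved by over 1.5-fold as a log2 ratio. Between the constructs RRF1 differed by 0.13 ± 0.01.

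MRF1, the release factor that reads stop codons in mitochondria, was slightly lower on both construct arrays. MRF1 (YGL143C, chromosome VII, 234722 to 235963, 1242 bp, 8 probes) read 1167 with vector, 919 for Ssz1 S295F and 937 for the Zuo1 fragment. All vector blocks lay above all construct blocks, while the blocks of the constructs overlapped. The log2 ratios to vector were -0.35 ± 0.05 and -0.32 ± 0.02. After a loess on mean level they were 0.02 and -0.01, so that the direction turned for Ssz1 S295F and little was left of either difference.

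The 3 genes of elongation factor type, TUF1, MEF1 and MEF2, stayed close to their vector levels. TUF1, the mitochondrial elongation factor Tu that delivers tRNAs (YOR187W, chromosome XV, 684031 to 685344, 1314 bp), read 8841 with vector, 8666 for Ssz1 S295F and 8833 for the Zuo1 fragment. Its blocks overlapped between all 3 arrays, and its log2 ratios to vector were -0.03 ± 0.04 and -0.00 ± 0.03. MEF1, the translocation factor related to bacterial EF-G (YLR069C, chromosome XII, 271631 to 273916, 2286 bp), read 4533, 4940 and 4633 on the same arrays. Its blocks did not overlap, with ratios of 0.12 ± 0.02 and 0.03 ± 0.01, of which the second turned to -0.02 after a loess on coding length.

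MEF2, a second EF-G-type factor whose human relative acts in ribosome recycling (YJL102W, chromosome X, 231297 to 233756, 2460 bp), read 1411 with vector, 1351 for Ssz1 S295F and 1273 for the Zuo1 fragment. Neighbours in this order overlapped in their blocks, while vector and the Zuo1 fragment did not. The ratios to vector were -0.06 ± 0.05 and -0.15 ± 0.03, and both turned positive, at 0.24 and 0.12, after a loess on mean level.

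IFM1, the mitochondrial initiation factor 2 that places the initiator tRNA (YOL023W, chromosome XV, 278057 to 280087, 2031 bp), read 741 with vector, 748 for Ssz1 S295F and 731 for the Zuo1 fragment. Its blocks overlapped between all arrays, and its log2 ratios were 0.01 ± 0.01 and -0.02 ± 0.02. IFM1 moved to 0.42 and 0.34 after a loess on mean level, to 0.16 and 0.10 with ratios centred on their median, and to -0.09 and -0.08 after a loess on coding length, so its direction rests on the scaling.

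As a group, 1 of the 8 genes was past 2-fold higher with each construct and 0 were lower. Of all genes, 7.79% passed 2-fold with Ssz1 S295F and 4.5% did so with the Zuo1 fragment, with 5.02% and 3.64% higher and 2.77% and 0.866% lower. PTH1 was chosen for its difference, and nothing is read from this count. Without PTH1, 0 of 7 passed 2-fold in either comparison, and their median log2 ratios were -0.06 and -0.15, beside -0.15 and -0.12 over all genes. At 1.5-fold, 2 of 8 passed in each comparison with vector, PTH1 and RRF1, where 23.3% and 14.8% of all genes did, and PTH1 passed between the constructs, where 2.06% did. Between the constructs, 0 of 8 passed 2-fold, where 0.277% of all genes did, and 7 of the 8 lay between -0.09 and 0.14.

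**Figure D2:**
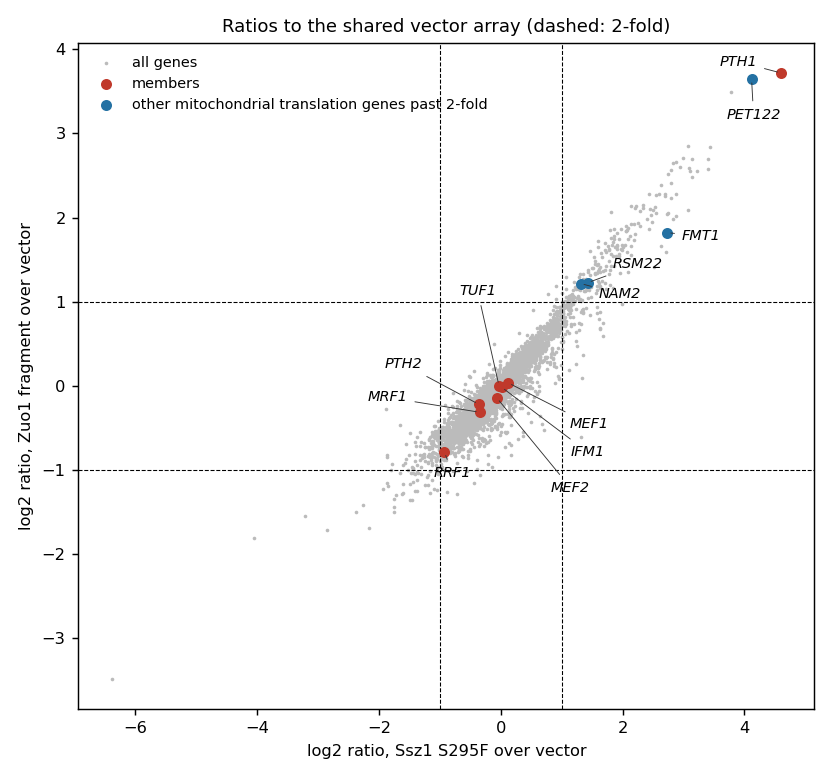
Log2 ratio of each gene to vector with Ssz1 S295F (horizontal) and with the Zuo1 fragment (vertical), for all genes (grey), the 8 genes described (red) and 4 other genes of mitochondrial translation past 2-fold (blue). Both axes share the vector array, dashed lines mark 2-fold, and PTH1 at 4.60 and 3.72 lies at the upper end with PET122 next to it.

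Coding length goes with the ratios across all genes, and PTH1 lay against that trend. Coding length here is the span from start to stop codon, with any introns included. Genes of 78 to 654 bp, the shortest 20%, to which PTH1 and PTH2 belong, had median log2 ratios to vector of -0.48 and -0.34, with 36 and 28 of 1158 past 2-fold higher. Among genes of 656 to 1026 bp, where RRF1 belongs, the medians were -0.31 and -0.25, and the quartiles ran from -0.50 to -0.16 with Ssz1 S295F. RRF1 was below those quartiles. Among genes of 1029 to 1461 bp, the medians were -0.11 for each construct. MRF1, at -0.35 with Ssz1 S295F, was below their lower quartile of -0.29, and TUF1, at -0.03, was inside the quartiles.

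The longest members lay inside the quartiles of genes like them in length, except MEF2 with the Zuo1 fragment, at -0.15 against a lower quartile of -0.13. MEF1 and MEF2 belong to the longest 20%, with medians of 0.06 and 0.04, and IFM1 to those of 1464 to 2115 bp, with medians of 0.11 and 0.08. After a loess on coding length was subtracted, PTH1 stood at 5.04 with Ssz1 S295F and 4.05 for the Zuo1 fragment, and the other 7 genes lay between -0.53 (RRF1) and 0.09 (PTH2). What part of the smaller differences goes with coding length was not tested.

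**Figure D3:**
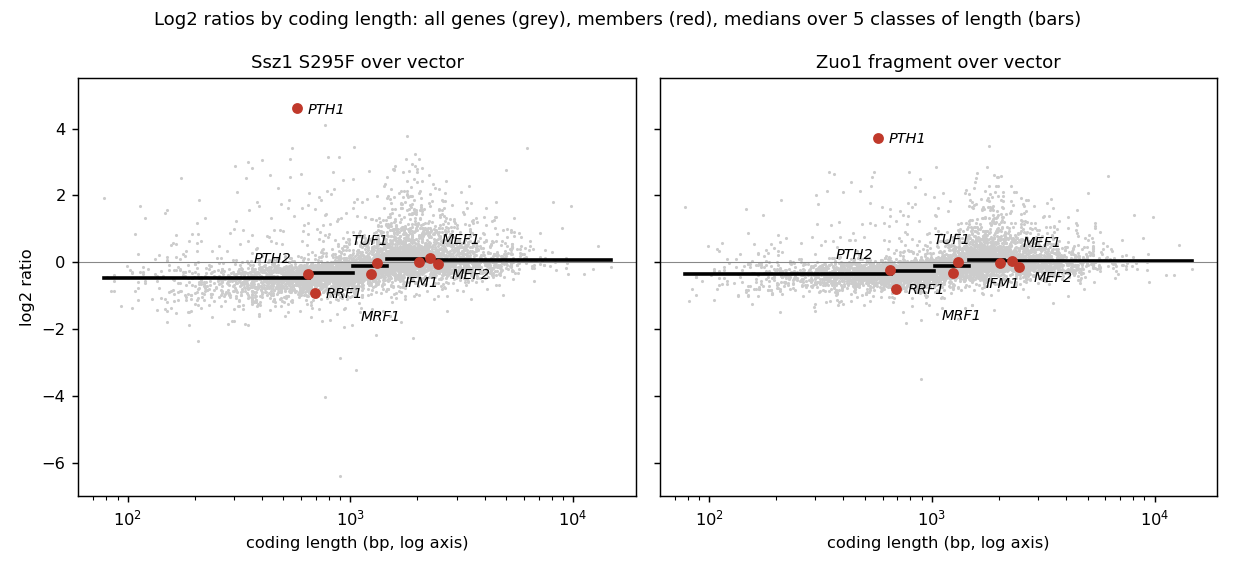
Log2 ratio to vector against coding length (bp, log axis) for all genes (grey) and the 8 genes described (red), with Ssz1 S295F on the left and the Zuo1 fragment on the right. Black bars are medians over 5 classes of length, from -0.48 in the shortest to 0.06 in the longest with Ssz1 S295F, and PTH1 lies at 4.60 and 3.72 among the short genes.

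PTH1 was also set beside the genes whose pair of ratios to vector was nearest to its own, as a description, since those ratios chose it. Among 4568 genes at or above the 25th percentile of at least 1 array, the 5 with the smallest Euclidean distance were MET13 (0.85), a methylenetetrahydrofolate reductase gene, the arginine permease gene CAN1 (1.75), the glycerol-3-phosphate dehydrogenase gene GUT2 (1.80), the kinase gene YPK2 (1.88) and VAM10 (1.89). Distances are in log2 units over the 2 ratios, which rest on 3 arrays and share vector. All 5 met the limit on level through the construct arrays alone, with vector readings at percentiles 7.79 to 17.0. Without that limit, PET122 was the nearest of 5776 genes, at 0.49. After it came MET13, YJR154W (1.46), YCR101C (1.57) and AI3 (1.65). The vector readings of YJR154W, YCR101C and AI3 lay at percentiles 3.29, 1.06 and 1.04.

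PET122, an activator of the translation of the mitochondrial COX3 message, had the second highest ratio of all genes in both comparisons with vector. PET122 (YER153C, chromosome V, 474036 to 474800, 765 bp) read 25.8 with vector, 447 for Ssz1 S295F and 322 for the Zuo1 fragment. Its vector blocks were 24.0, 25.5 and 28.0, and its lowest construct block was 297. The log2 ratios were 4.12 ± 0.10 and 3.64 ± 0.06. Its vector reading lay at percentile 1.30, lower than that of PTH1, and its construct readings at percentiles 9.57 and 7.39, so the size of its ratios is uncertain beyond the block SD. With each array floored at its 5th percentile, its log2 ratio with Ssz1 S295F fell to 1.08, just past 2-fold. With the Zuo1 fragment it was no longer past 2-fold.

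The 16 other genes listed as translational activators of mitochondrial messages did not share the ratio of PET122. Of the 17 measured, 1 was past 2-fold higher and 0 lower with each construct, beside 5.02% and 3.64% of all genes higher. Their median log2 ratios were -0.16 and -0.14, close to those of all genes. PET309, an activator of the COX1 message (0.75 ± 0.08 and 0.70 ± 0.09), was on the higher side, and past 2-fold after a loess on mean level (1.11 and 1.01). CBS1, of the COB message (-0.84 ± 0.03 and -0.70 ± 0.03), and PET54, which acts with PET122 on COX3 (-0.83 ± 0.02 and -0.55 ± 0.02), were on the lower side.

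Among 9 other mitochondrial translation factors, 1 was past 2-fold higher with each construct, FMT1, and 0 were lower, beside 5.02% and 3.64% of all genes higher. FMT1, which formylates the initiator methionyl-tRNA (YBL013W, chromosome II, 202059 to 203264, 1206 bp), read 27.0 with vector, 180 for Ssz1 S295F and 95.3 for the Zuo1 fragment. The ratios were 2.73 ± 0.18 and 1.82 ± 0.23, with all 3 readings below the 5th percentile of their arrays, so that no size can be relied on. With each array floored at its 5th percentile, 0 of the 9 passed in either comparison. Its difference between the constructs, -0.91 ± 0.05, stood beside the -0.88 of PTH1, with the same reservation.

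Of the other genes of that list, MTG2 was on the higher side and the other 7 were below vector in both comparisons. MTG2, a GTPase of large subunit assembly, read 961 with vector, 1857 for Ssz1 S295F and 1841 for the Zuo1 fragment, with ratios of 0.95 ± 0.16 and 0.94 ± 0.22, just under 2-fold. It was past 2-fold in both comparisons when centred on the median (1.10 and 1.06), after quantile normalization (1.09 and 1.07), after a loess on mean level (1.26 and 1.21) and in block 1 alone (1.14 and 1.16). PTH4 (-0.66 ± 0.08 and -0.69 ± 0.09) and the GTPase gene MRX8 (-0.56 ± 0.06 and -0.37 ± 0.02) were the lowest with Ssz1 S295F. The list's median was -0.32 and -0.27, and 6 of 9 lay below the median of all genes in each comparison.

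Of 14 mitochondrial aminoacyl-tRNA synthetases, 1 was past 2-fold higher with each construct and 0 lower, beside 5.02% and 3.64% of all genes higher and 2.77% and 0.866% lower. NAM2, the leucyl-tRNA synthetase, which also acts in the splicing of mitochondrial introns (YLR382C, chromosome XII, 882067 to 884751, 2685 bp), read 1283 with vector, 3180 for Ssz1 S295F and 2977 for the Zuo1 fragment. Its blocks ran from 1256 to 1334 with vector and from 2882 to 3328 over the construct arrays, and the ratios were 1.31 ± 0.13 and 1.21 ± 0.09. Unlike PTH1 and PET122, its vector reading was not at the bottom of the array, at percentile 23.5. The other 13 synthetases lay between -0.51, for the tryptophanyl-tRNA synthetase gene MSW1, and 0.35, for the isoleucyl-tRNA synthetase gene ISM1, with Ssz1 S295F, and the list's medians were -0.05 and -0.11.

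Of 6 genes of tRNA amidation and wobble modification, 0 passed 2-fold, where 7.79% and 4.5% of all genes did. PET112 (0.63 ± 0.17 and 0.41 ± 0.05) and GTF1 (-0.70 ± 0.04 and -0.62 ± 0.03), which belong to the same enzyme for glutaminyl-tRNA, lay on opposite sides of vector. Coding lengths of PET112 and GTF1 are 1626 and 552 bp. HER2, also of this list, lay between them, at -0.00 ± 0.05 and -0.14 ± 0.04. In the list of mitochondrial transcription and DNA maintenance, 0 of 5 passed 2-fold beside the same shares of all genes, with the RNA polymerase gene RPO41 at 0.65 ± 0.11 and 0.47 ± 0.02 and its partner MTF1 at -0.59 ± 0.05 and -0.44 ± 0.05.

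Mitochondrial ribosomal proteins, a list of 75 measured genes built from gene names alone, the role of each not checked, had median log2 ratios of -0.50 and -0.37. Of these, 69 and 66 lay below the median of all genes. After a loess on coding length the medians were -0.11 and -0.08. Of the 75, 1 was past 2-fold higher and 0 lower with each construct, beside 5.02% and 3.64% of all genes higher and 2.77% and 0.866% lower. This was RSM22 (YKL155C, 1887 bp), a methyltransferase-like protein of the small subunit, which read 722 with vector, 1942 for Ssz1 S295F and 1687 for the Zuo1 fragment. Its ratios were 1.43 ± 0.01 and 1.22 ± 0.26, the second with 1 block at 1374 and the others at 1885 and 1853. MRP2, MRPL50 and MRP10, the lowest with Ssz1 S295F, were each at -0.99 and are 288 to 420 bp long.

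Of 7 measured cytosolic translation factors, listed as counterparts, 0 passed 2-fold, beside 7.79% and 4.5% of all genes. YEF3, in this list at 0.05 in both comparisons, has no counterpart among the genes described. SUP45, the cytosolic release factor, was at -0.06 and -0.04, and SUP35, its partner, at 0.10 and 0.12. EFT2, cytosolic elongation factor 2 and the counterpart of MEF1, had the largest ratios, at 0.40 ± 0.05 and 0.42 ± 0.04. TEF2, a gene of the counterpart of TUF1, was at -0.09 and -0.05. EFT2 and the TEF genes have near-identical copies whose signals may be mixed, and EFT1 was not analysed here.

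**Figure D4:**
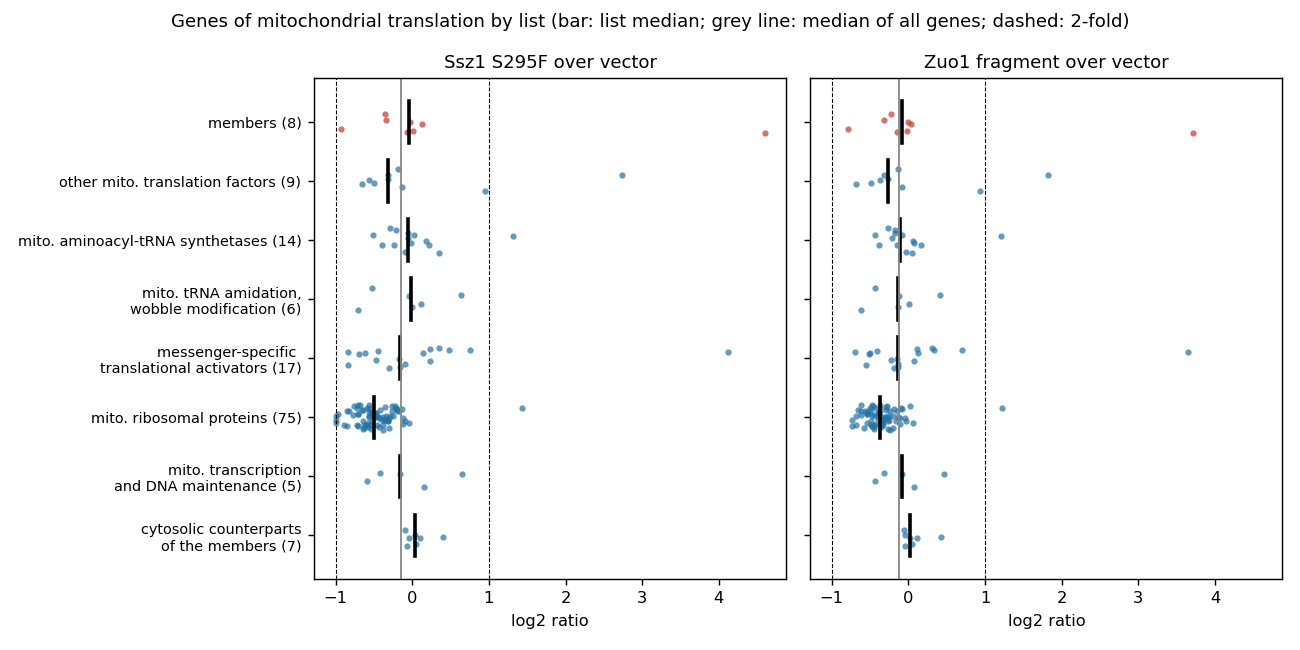
Log2 ratios to vector of single genes (points) in the 8 genes described (red) and 7 lists of related genes (blue), with the list median (bar), the median of all genes (grey line) and 2-fold (dashed), for Ssz1 S295F on the left and the Zuo1 fragment on the right. PTH1 and PET122 stand apart at 4.60 and 4.12 on the left, while mitochondrial ribosomal proteins gather around -0.50.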

How the data were processed

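The deposited array files give 1 linear intensity per gene and block, made with RMA per the submitters' processing notes. RMA corrects background, normalizes arrays and summarizes probes; no version is given in the sources used here. There are 5777 genes and 3 blocks on each array, per the file headers. With 1 array per group, the number of arrays limits the precision.

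Block values were put on the log2 scale and averaged, with no floor or pseudocount, and ratios are differences of these means (pandas 2.3.3, numpy 2.4.6). The computation was tested on simulated data with known shifts and noise but no trend with level or coding length. This checks the computation and not the ratios of these arrays. Genes were named by locus tag through RefSeq R64 for 5771 genes. Coordinates are those of the array files (chromosome sequences dated 2008 there) and give start to stop codon, with any introns included. The span between them was used as coding length. The series-wide table of intensity, deposited by the authors, equals the block mean for 5769 genes (largest relative difference 3.33e-10) and served as an alternative. Other alternatives were single blocks, centring, quantile normalization, a loess on mean level or coding length (statsmodels 0.14.6), a floor, a pseudocount of 64 and thresholds of 1.5-fold and 3-fold.

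Members and lists were chosen with earlier results of these data known. Named are all 8 members, 2 genes on each side of PTH1, the 5 genes nearest to PTH1 and up to 4 members per list with the largest ratios. The genes nearest without the limit on level, PET122 first among them, were added after their values were seen. Promoter and protein sequences were not used here.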

Additional observations from a re-analysis of the deposited data

How the results depend on the processing

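The log2 ratio of PTH1 stayed above 2-fold to vector under 11 alternatives in each comparison, between 3.16 and 5.10 for Ssz1 S295F, and between 2.28 and 4.20 for the Zuo1 fragment. By more than its block SD it moved with block 2 alone (4.48 and 3.60), with centring on the median (4.75 and 3.84), quantile normalization (4.75 and 3.88), a loess on mean level (5.10 and 4.20), a loess on coding length (5.04 and 4.05), a floor at the 5th percentile (3.16 and 2.28) and a pseudocount of 64 (3.78 and 2.94). Floor and pseudocount act by construction on its low vector reading; the cause of the other shifts was not tested. Between the constructs it moved with block 3 alone (-0.92), the loess on coding length (-0.99) and the pseudocount (-0.84), and stayed under 2-fold throughout. At 1.5-fold, 2 of 8 members passed with each construct over vector (PTH1 and RRF1) and 1 between the constructs (PTH1). Without PTH1, an alternative added after seeing the data, 0 passed 2-fold in each comparison. None of the other 7 members reached 2-fold under any of the 11 alternatives. For the 7 lists of related genes, alternatives added after seeing the data moved counts past 2-fold in 3: other translation factors (0 to 2 of 9 with each construct), activators (1 to 2 of 17 with Ssz1 S295F and 0 to 2 for the Zuo1 fragment) and ribosomal proteins (1 to 3 and 0 to 1 of 75). No paired analysis was possible because each group has 1 array. The planned search of promoter windows for motifs was not run.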
